A study of Homo sapiens with 6 samples.

Results

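Long intergenic noncoding RNAs that carry a LINC number were examined in 6 RNA libraries. The cells are labelled as PANC-1, an established line from a human pancreatic ductal carcinoma, in a form resistant to the nucleoside drug gemcitabine. The members are rows of the lncRNA table whose gene name is LINC followed by digits only and whose mean over the 6 libraries is at least 0.3 FPKM (fragments counted on a gene, scaled to its length and to the total fragments of the library). This gives 131 of the 1806 LINC-numbered rows, out of 14145 rows in the lncRNA table and 34057 in both tables. The members were thus chosen by their measured mean level, so levels below are a description. The difference between the groups was not a criterion. Still, 8 members reached the minimum only through the knockdown group and 3 only through the control group, and the counts below include them. Of the libraries, 3 are labelled control (titles ending NC1 to NC3) and 3 carry the treatment label shSRSF3, a short hairpin RNA against the splicing factor SRSF3 (knockdown-labelled below). All 6 share the label of the cell line and of the resistant phenotype. The labels name no clone, culture, batch, drug exposure at harvest, or origin of the replicates, so each p-value reflects the spread among these 6 libraries alone, and that spread may be technical.

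A LINC number is a placeholder: it is given to an intergenic long noncoding RNA gene without a known function, and is replaced when a function, a host role or a partner gene is settled. Such RNAs are made by RNA polymerase II, are mostly spliced and polyadenylated, and are typically less abundant and more cell-type-restricted than mRNAs. SRSF3 belongs to the serine/arginine-rich proteins, which bind exons and guide splice-site choice. The title given to the series concerns its part in splicing another lncRNA, ANRIL.

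SRSF3 itself stood at 38.6 ± 1.40 FPKM in controls and 37.5 ± 0.900 FPKM in knockdown-labelled libraries (SD, n = 3; log2 difference -0.04, SE 0.05, limma adjusted p = 0.612), so no fall of the targeted mRNA was detected and directions below are those of the label. Of 8 markers listed for ductal carcinoma cells, 6 were above 1 FPKM (KRT8, KRT18, KRT19, EPCAM, SOX9 and CDH1), while KRT7 averaged 0.166 FPKM and VIM, which PANC-1 is known to express, 0.0188 FPKM. The VIM level is thus unlike the labelled line, and the identity of the cells was not tested. The summed level of markers of leukocytes, fibroblasts, acinar, endocrine and endothelial cells stayed at or below 0.751 FPKM in every library. Library totals recovered from the values were 24558238 to 27351642 fragments. Mitochondrially encoded mRNAs took 25.6% to 26.2% of the summed mRNA FPKM in controls and 32.1%, 27.5% and 25.6% in knockdown-labelled libraries 1 to 3, so library 1 of that group stands apart. The stress-inducible genes FOS, JUN, EGR1 and HSPA1A summed to 58.2 to 59.1 FPKM in controls and 76.5 to 77.3 FPKM in the other group. The part of either in the results below was not tested.

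Most LINC genes were listed at 0. Of the 1806 LINC-numbered rows, 1175 (65.1%) were listed at 0 in all 6 libraries, against 50.4% of the other lncRNA rows and 18.1% of mRNA rows. A mean of at least 0.3 FPKM was reached by 7.25% of LINC-numbered rows, 12.9% of other lncRNA rows and 57.2% of mRNA rows. Among rows above that level the median was 0.862 FPKM for LINC genes, 0.721 FPKM for other lncRNAs and 6.09 FPKM for mRNAs. Of the 131 members, 72 averaged below 1 FPKM, 50 lay between 1 and 5 FPKM and 9 reached 5 FPKM. The 10 most abundant made up 34.8% of the members' summed FPKM in controls. In a bulk sample, fewer cells that express a gene and less RNA per cell cannot be told apart.

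The number of fragments behind these values sets their precision. Every member's FPKM values fell on whole fragment numbers for a single gene length, within 0.003 fragments. These are the fewest fragments that fit, since a multiple of both length and fragments gives the same FPKM. The median was 40 fragments per member and library. In 21 members every library held at least 100 fragments, and in 35 members at least 1 library held fewer than 10. The coefficient of variation over the 6 libraries had a median of 12.7% in the 9 members of 5 FPKM or more, 16.3% in those of 1 to 5 FPKM and 28.9% in those below 1 FPKM. The steadiest member was LINC00511, an RNA studied in carcinoma and reported to bind the Polycomb enzyme EZH2, with a coefficient of 4.59%. It was listed at 3.93, 4.24 and 3.89 FPKM in control libraries 1 to 3 and 4.25, 4.18 and 3.85 FPKM in knockdown-labelled libraries 1 to 3. The groups overlap (log2 0.03, 95% interval from -0.23 to 0.28). The least steady was LINC01337, at 98.3%, with 0.925, 0.178 and 0.415 FPKM in control libraries 1 to 3 and 0.177, 0.274 and 0 FPKM in knockdown-labelled libraries 1 to 3. Its values rest on 0 to 10 fragments per library, and the groups overlap.

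LINC02086 was the most abundant member, with a mean of 19.5 FPKM. It was listed at 17.3, 17.9 and 17.6 FPKM in control libraries 1 to 3 and 23.2, 20.9 and 20.2 FPKM in knockdown-labelled libraries 1 to 3. All 3 knockdown-labelled values lie above all 3 controls, whose values are close together (log2 difference 0.28, SE 0.07, limma adjusted p = 0.269). LINC00513 came next. It has been studied for a link to type I interferon signalling in lupus, and was listed at 8.97, 8.55 and 9.14 FPKM in control libraries 1 to 3 and 12.3, 10.6 and 11.8 FPKM in knockdown-labelled libraries 1 to 3. Again the groups do not overlap (log2 difference 0.37, SE 0.09, limma adjusted p = 0.232). LINC00960 was listed at 6.03, 5.68 and 5.94 FPKM in control libraries 1 to 3 and 7.18, 7.42 and 7.04 FPKM in knockdown-labelled libraries 1 to 3, with no overlap (log2 difference 0.29, SE 0.09, limma adjusted p = 0.357). Each of these rests on deep coverage for a lncRNA, from 353 fragments in the thinnest library of LINC00513 to 2297 in the deepest of LINC02086.

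**Figure D1:**
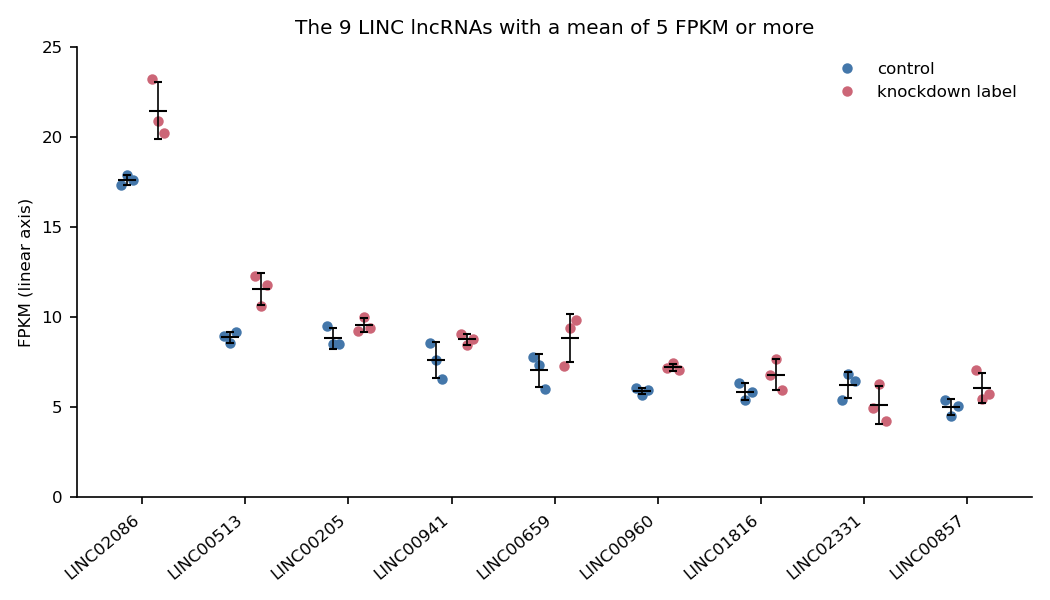
FPKM (linear axis from 0) of the 9 LINC lncRNAs with a mean of 5 FPKM or more, per library; points are libraries, bars the mean and SD of 3. LINC02086 stands near 20 FPKM, apart from the others, and LINC02331 alone has a lower mean in the knockdown-labelled libraries on the deposited scale.

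The remaining abundant members had smaller or less even differences. LINC00205 stood at 8.82 ± 0.573 FPKM against 9.54 ± 0.406 FPKM (SD, n = 3). LINC00941, studied in pancreatic and other carcinomas, stood at 7.6 ± 0.999 FPKM against 8.76 ± 0.296 FPKM (SD, n = 3), and LINC00659, studied in colon carcinoma, at 7.04 ± 0.904 FPKM against 8.84 ± 1.35 FPKM (SD, n = 3). LINC01816 stood at 5.86 ± 0.479 FPKM against 6.78 ± 0.861 FPKM (SD, n = 3) and LINC02331 at 6.22 ± 0.73 FPKM against 5.13 ± 1.05 FPKM (SD, n = 3). In these 5 the groups overlap, and limma p-values ran from 0.0597 to 0.233. LINC00857, studied in lung and other carcinomas, was listed at 5.38, 4.52 and 5.05 FPKM in control libraries 1 to 3 and 7.03, 5.46 and 5.72 FPKM in knockdown-labelled libraries 1 to 3. The lowest of its knockdown-labelled values is just above the highest control, and the difference is carried mostly by library 1 of that group (log2 0.27, and 0.16 without that library). LINC02086 stands clear of all other members in every library. From LINC00513 down to LINC00857, each member's range over the 6 libraries overlaps that of the next in the order of abundance.

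Across the lncRNA table the comparison of the groups asks which lncRNAs differ in cells with the knockdown label. In limma on log2(FPKM + 0.1), 0 of the 131 members passed an adjusted p of 0.05, and 0 of 3092 tested lncRNA rows did (0%). The smallest adjusted p was 0.143 among members and 0.0681 in the table. At an unadjusted p under 0.05 there were 11 members with a higher and 2 with a lower level in knockdown-labelled libraries, or 8.4% and 1.53% of members, where the background over all tested rows was 4.98% higher and 4.2% lower. Over the 1726 lncRNA rows at the members' own minimum of 0.3 FPKM these shares were 7.59% and 5.16%. Groups did not overlap in 18 members with higher and 9 with lower values in the knockdown-labelled libraries, or 13.7% and 6.87% of members, against 7.99% and 7.57% of all tested rows and 11% and 8.69% of rows from 0.3 FPKM. These shares move with level: among lncRNA rows of 5 FPKM or more, 30% had non-overlapping groups with higher values and 1% with lower values, and among the 9 members at that level 4 were higher and 0 lower. On the scale of log2(FPKM + 0.1), the groups of 109 members differed by less than 0.5. The 95% interval excluded a 2-fold difference of FPKM + 0.1 in either direction for 90. At low levels this is not a limit of 2-fold in FPKM itself. The same shares over all tested rows are not given here.

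The members' median log2 difference was 0.10, with 82 above and 49 below 0, beside a median of -0.02 and 48.3% above 0 over all tested rows, and of 0.03 and 52.2% over rows from 0.3 FPKM. Median scaling of the libraries gave 78 above 0 and quantile normalization 75, with a median of 0.07 under both. The median log2 difference was 0.27 in the 9 members of 5 FPKM or more, 0.11 in those of 1 to 5 FPKM and 0.05 in those below 1 FPKM. Over all lncRNA rows the medians of the first 2 of these levels were 0.12 and 0.05. Summed over members, the level was 226.1, 219.8 and 217.8 FPKM in control libraries 1 to 3 and 252.0, 243.6 and 234.6 FPKM in knockdown-labelled libraries 1 to 3. All 3 of the latter lie above the controls, by 10% on average and by 8.08% without knockdown-labelled library 1, the library with the highest mitochondrial share. Quantile normalization reduced the difference to 4.62%. The sum over all lncRNA rows was 3327, 3312 and 3309 FPKM in control and 3492, 3484 and 3394 FPKM in knockdown-labelled libraries 1 to 3. The members' share of it was 6.80%, 6.63% and 6.58% against 7.22%, 6.99% and 6.91%. The summed mRNA FPKM was 285701, 284236 and 275359 in controls and 336887, 308101 and 287148 in the other group. The sums of both tables were thus higher with the knockdown label too.

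**Figure D2:**
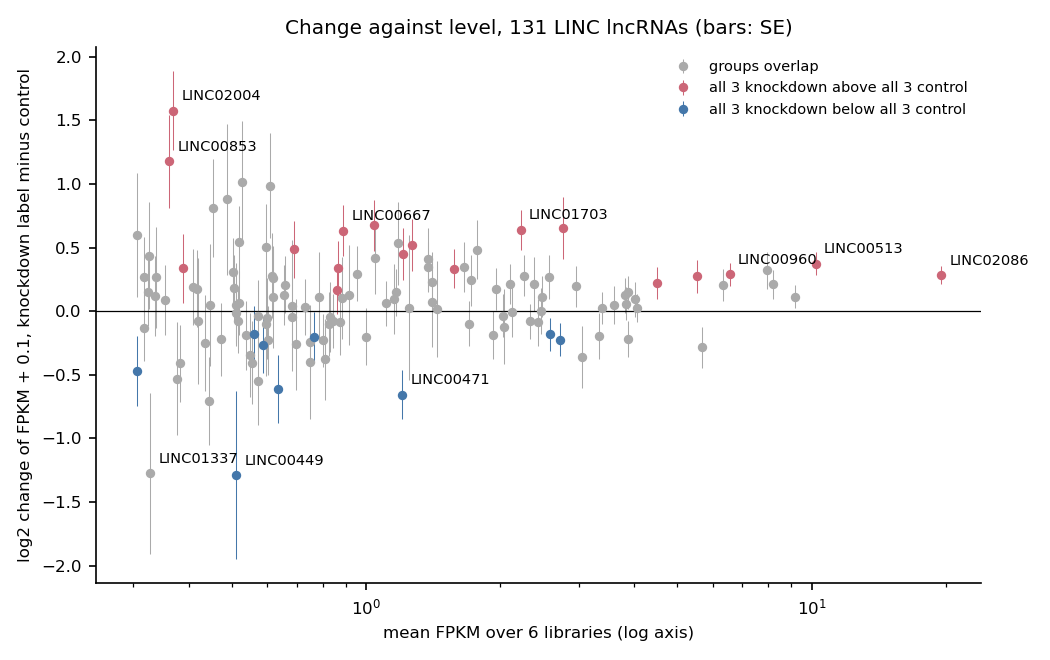
Log2 difference of FPKM + 0.1 (knockdown-labelled minus control) against mean FPKM over 6 libraries (log axis) for 131 LINC lncRNAs; bars are the limma SE, colour shows whether the groups overlap. Differences beyond 1 on the log2 scale occur only below 1 FPKM, where the SE is widest.

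The FPKM scale gives a value from a few fragments the same form as one from many. Limma voom on the recovered fragment numbers, which weights each value by its expected precision, was run as an alternative. Voom took each variance largely from all rows together, so its small p-values do not measure a gene's own spread among replicates. It called 4 of the 131 members, all higher, where it called 1.41% of 3055 rows higher and 0.426% lower. The 4 are LINC02086 (voom log2 0.28, SE 0.04, adjusted p = 4.63e-07), LINC00667 (0.70, SE 0.15, adjusted p = 7.03e-04), LINC00513 (0.38, SE 0.09, adjusted p = 0.00878) and LINC00960 (0.29, SE 0.08, adjusted p = 0.04). The voom call of LINC02086 held without any 1 library (highest adjusted p = 0.00172) and so did that of LINC00667 (highest 0.0472). LINC00513 lost it without control library 2 (0.147) or control library 3 (0.0586). LINC00960 lost it with median scaling (0.082), without control library 1, 2 or 3 (0.118, 0.275 and 0.175) and without knockdown-labelled library 2 (0.163). None of the 4 passed in limma on FPKM.

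The RefSeq promoter windows of 6 members are shown because these are the 4 called by voom and, among the others, the members of at least 1 FPKM with the smallest limma p in each direction. Each window runs from 250 bases before to 50 bases after the annotated start (GRCh38.p14), written 5′ to 3′ on the gene's strand. Capitals mark matches, on either strand, to the TATA box letters TATAAA, the CCAAT box, the GC box GGGCGG and the ETS core CGGAAG. They also mark the E-box CACGTG and the letters TGANTCA with any base at N, a wider pattern than the AP-1 site. Matches may overlap.
LINC02086 (chr17:48642377-48642676, plus strand): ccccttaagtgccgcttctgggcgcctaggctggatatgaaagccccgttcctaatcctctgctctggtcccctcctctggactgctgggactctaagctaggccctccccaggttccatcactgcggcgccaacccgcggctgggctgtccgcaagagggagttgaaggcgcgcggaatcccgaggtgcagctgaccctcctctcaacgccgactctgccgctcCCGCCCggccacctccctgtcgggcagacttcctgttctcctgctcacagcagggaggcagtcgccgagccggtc
LINC00513 (chr7:130913214-130913513, plus strand): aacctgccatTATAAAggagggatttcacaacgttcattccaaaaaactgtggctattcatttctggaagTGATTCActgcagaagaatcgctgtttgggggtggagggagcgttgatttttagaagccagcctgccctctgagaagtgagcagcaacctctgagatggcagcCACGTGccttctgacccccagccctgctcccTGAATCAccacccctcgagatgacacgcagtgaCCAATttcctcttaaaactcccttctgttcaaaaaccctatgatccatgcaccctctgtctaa
LINC00960 (chr3:75672031-75672330, plus strand): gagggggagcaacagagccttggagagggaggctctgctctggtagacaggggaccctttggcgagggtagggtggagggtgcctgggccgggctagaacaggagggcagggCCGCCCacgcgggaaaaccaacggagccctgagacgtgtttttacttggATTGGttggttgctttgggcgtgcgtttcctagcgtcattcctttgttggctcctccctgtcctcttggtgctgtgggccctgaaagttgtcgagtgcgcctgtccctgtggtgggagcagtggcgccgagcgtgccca
LINC00667 (chr18:5237850-5238149, plus strand): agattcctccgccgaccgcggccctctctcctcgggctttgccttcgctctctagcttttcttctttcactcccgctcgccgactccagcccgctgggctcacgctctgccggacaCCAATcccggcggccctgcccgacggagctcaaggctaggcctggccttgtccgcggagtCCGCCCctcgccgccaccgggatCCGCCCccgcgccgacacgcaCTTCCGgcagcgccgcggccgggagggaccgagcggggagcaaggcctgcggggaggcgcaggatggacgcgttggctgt
LINC01703 (chr1:226083325-226083624, plus strand): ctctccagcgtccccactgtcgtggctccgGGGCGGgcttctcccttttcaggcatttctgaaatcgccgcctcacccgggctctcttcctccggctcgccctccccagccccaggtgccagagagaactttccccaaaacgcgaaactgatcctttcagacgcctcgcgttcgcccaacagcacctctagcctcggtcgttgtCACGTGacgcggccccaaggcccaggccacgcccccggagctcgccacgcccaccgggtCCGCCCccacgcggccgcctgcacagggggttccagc
LINC00471 (chr2:231514328-231514627, minus strand): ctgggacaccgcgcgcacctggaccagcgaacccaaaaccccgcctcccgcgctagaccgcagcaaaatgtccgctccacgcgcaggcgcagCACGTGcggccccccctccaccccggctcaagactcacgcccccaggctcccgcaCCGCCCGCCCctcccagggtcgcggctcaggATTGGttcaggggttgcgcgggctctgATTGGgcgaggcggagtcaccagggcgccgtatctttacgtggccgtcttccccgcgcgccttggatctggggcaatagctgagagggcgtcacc

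The windows differ in base composition. A promoter was counted as CpG-rich when at least 50% of its bases were G or C and the observed to expected ratio of CG pairs was at least 0.6. LINC02086, LINC00667, LINC01703 and LINC00471 meet this, with ratios of 0.658, 0.994, 0.892 and 0.907. LINC00960 (0.539) and LINC00513 (0.336) do not. The LINC00513 window holds 1 match to TATAAA, 1 to CCAAT, 1 to CACGTG and 2 to TGANTCA, and no GC box. Among all 27305 promoters of the table TATAAA occurs in 12%, CCAAT in 35.7%, GGGCGG in 44.6%, CGGAAG in 19.9%, TGANTCA in 7.76% and CACGTG in 7.43%. A match is a description of the letters and not a bound site.

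In CpG and GC content, expressed LINC genes lay nearer to protein-coding genes than to the other LINC genes. RefSeq windows were found for 105 of the 131 members. Of these, 55 (52.4%) were CpG-rich, against 12.2% of 1139 windows of LINC genes below 0.3 FPKM, 9.1% of the 813 among them listed at 0 in all libraries, and 63.4% of 15843 protein-coding windows. The median share of G and C was 63% in members, 46.7% in the LINC genes below 0.3 FPKM and 62.7% in protein-coding genes. A GC box match was present in 54.3% of members, 15% of the LINC genes below 0.3 FPKM and 58.5% of protein-coding genes. For CGGAAG the shares were 27.6%, 8.34% and 25.6%, and for TATAAA 9.52%, 17% and 9.63%. CCAAT did not separate them, at 37.1%, 37.2% and 36.4%. Matches to letters made of G and C occur more often in windows rich in G and C, so these shares are not independent of one another. Among all members, 15 have a protein-coding start within 1000 bases on the opposite strand and 19 overlap a protein-coding gene. Some windows may thus lie in or beside a protein-coding promoter, and shares without them are not given here.

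**Figure D3:**
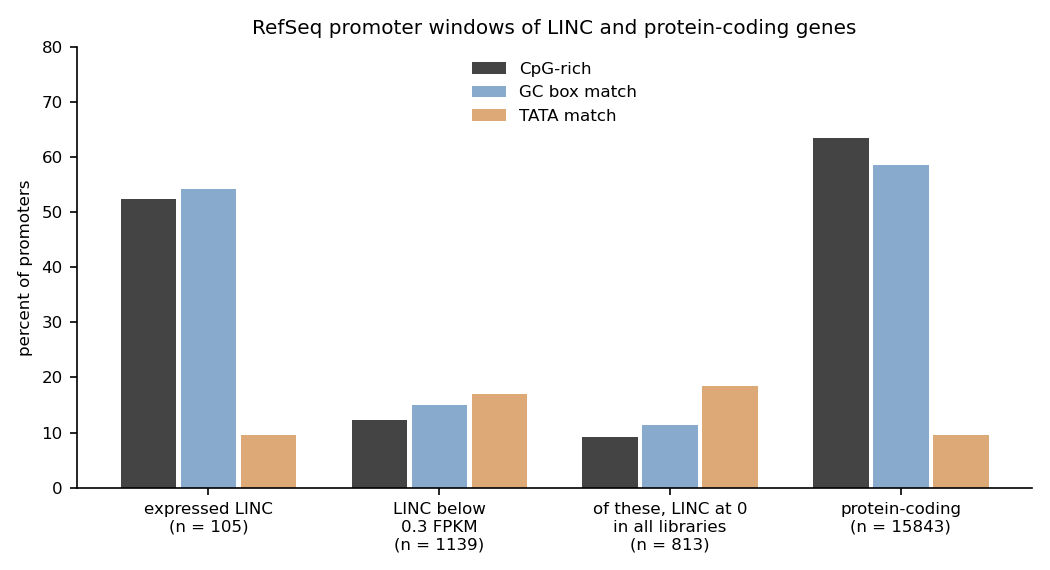
Percent of RefSeq promoter windows of 300 bases that are CpG-rich or hold a GC box (GGGCGG) match or a match to the TATA box letters (TATAAA), for LINC genes by level and for protein-coding genes; n under each set is the number of windows. The 105 expressed LINC windows lie near the protein-coding ones, and the LINC windows below 0.3 FPKM have fewer CpG-rich windows and more TATA matches.

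Further members separated the groups at lower levels. LINC00667, studied in carcinoma, was listed at 0.575, 0.723 and 0.736 FPKM in control libraries 1 to 3 and 1.15, 1.02 and 1.13 FPKM in knockdown-labelled libraries 1 to 3, without overlap (log2 difference 0.63, SE 0.20, limma adjusted p = 0.379). LINC01703 was listed at 1.69, 1.91 and 1.56 FPKM in control libraries 1 to 3 and 3.00, 2.74 and 2.45 FPKM in knockdown-labelled libraries 1 to 3, also without overlap (log2 difference 0.64, SE 0.16, limma adjusted p = 0.251). LINC01273 was listed at 0.774, 0.700 and 0.859 FPKM in control libraries 1 to 3 and 1.53, 1.12 and 1.27 FPKM in knockdown-labelled libraries 1 to 3. Its groups do not overlap either (log2 0.67, SE 0.20), on 16 to 35 fragments per library. LINC00316, LINC00524 and LINC02577 were higher in all 3 knockdown-labelled libraries, with log2 differences of 0.65, 0.52 and 0.49. For LINC00316 this rests largely on library 1 of that group, at 4.89 FPKM beside 2.82 and 2.66, and the log2 difference without it was 0.38. LINC01715, renamed TAF12-DT, was listed at 0.541, 0.400 and 0.187 FPKM in control libraries 1 to 3 and 0.958, 0.452 and 1.12 FPKM in knockdown-labelled libraries 1 to 3. Its groups overlap, since knockdown-labelled library 2 lies below control library 1 (log2 0.99).

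Of the members with lower values, LINC00471 had the smallest p. It was listed at 1.62, 1.5 and 1.37 FPKM in control libraries 1 to 3 and 1.00, 0.971 and 0.771 FPKM in knockdown-labelled libraries 1 to 3. Every knockdown-labelled value lies below every control (log2 difference -0.66, SE 0.19, limma adjusted p = 0.318). LINC01270 was listed at 0.851, 0.779 and 0.716 FPKM in control libraries 1 to 3 and 0.44, 0.36 and 0.668 FPKM in knockdown-labelled libraries 1 to 3. The groups do not overlap, but knockdown-labelled library 3 lies close to the controls (log2 -0.61, limma adjusted p = 0.539). LINC00265, at 2.94 ± 0.168 FPKM against 2.5 ± 0.0937 FPKM (SD, n = 3), and LINC00294, at 2.76 ± 0.211 FPKM against 2.42 ± 0.0898 FPKM (SD, n = 3), were slightly lower with over 190 fragments in each library (log2 -0.22 and -0.18). LINC01559 and LINC01714 also had no overlap, with log2 differences of -0.27 and -0.21. LINC00571 had none either (log2 -0.47), but it averaged 0.373 FPKM in controls and 0.239 FPKM in the other group, so it reached the 0.3 FPKM minimum only through the controls. LINC00449 was listed at 0.841, 0.583 and 0.671 FPKM in control libraries 1 to 3 and 0, 0.553 and 0.42 FPKM in knockdown-labelled libraries 1 to 3. The 0 in library 1 carries its difference, which was -1.29 on the log2 scale with that library and -0.44 without it.

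**Figure D4:**
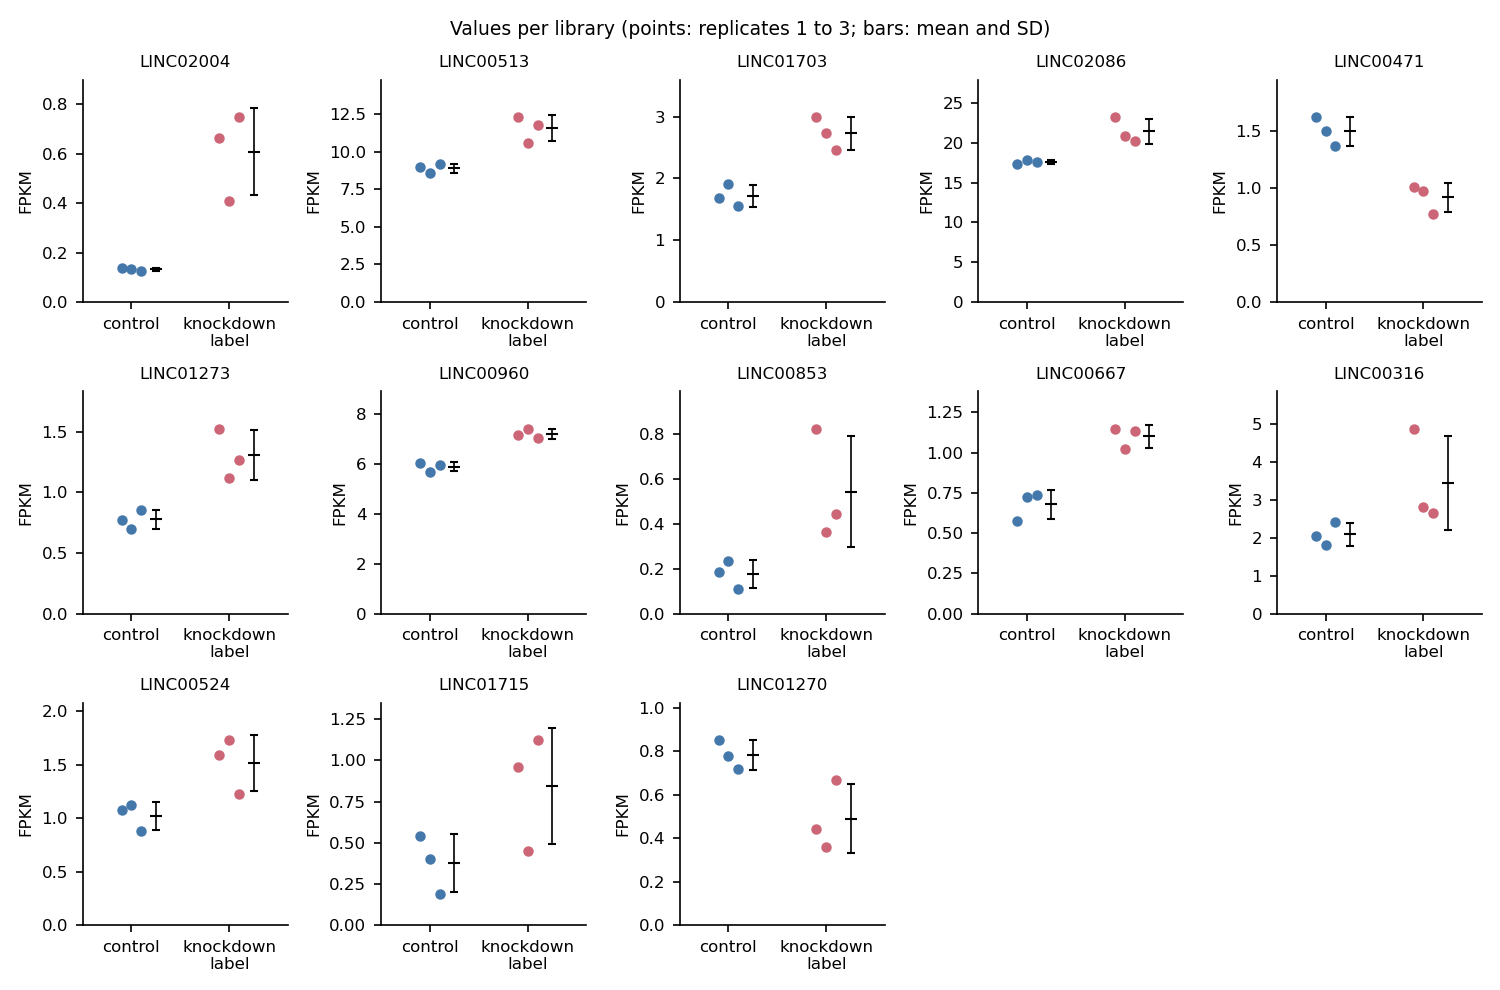
FPKM per library (linear axes from 0) of all 13 members at an unadjusted limma p under 0.05, in order of p; points are replicates 1 to 3 from left to right, bars the mean and SD. LINC00471 and LINC01270 are lower and the other 11 higher in the knockdown-labelled libraries, and the groups overlap in LINC01715 alone.

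The widest differences rest on few fragments. LINC02004 was listed at 0.139, 0.133 and 0.124 FPKM in control libraries 1 to 3 and 0.664, 0.41 and 0.748 FPKM in knockdown-labelled libraries 1 to 3. That is at least 1, 1 and 1 fragments against 5, 3 and 6, a ratio of 4.65 with a 95% exact counting interval from 1.30 to 25.2 (counting error only). It had the smallest limma p of all members (log2 1.58, SE 0.31, limma adjusted p = 0.143), while voom gave an adjusted p = 0.52. LINC00853 was listed at 0.185, 0.237 and 0.111 FPKM in control libraries 1 to 3 and 0.827, 0.364 and 0.443 FPKM in knockdown-labelled libraries 1 to 3, from 2 to 14 fragments, with a ratio of 3.10 (counting interval from 1.42 to 7.46). LINC02004, LINC00853, LINC01752 and LINC00324 belong to 8 members whose control mean is below 0.3 FPKM, so they passed the minimum through the knockdown-labelled group. The reverse holds for 3 members, LINC01337, LINC00571 and LINC01814. LINC01752 was listed at 0.279, 0.179 and 0.417 FPKM in control libraries 1 to 3 and 0.267, 1.01 and 1.00 FPKM in knockdown-labelled libraries 1 to 3, with overlap because library 1 of the knockdown-labelled group is as low as the controls.

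The members just above the minimum were LINC01759, LINC02163 and LINC00571, with means of 0.317, 0.307 and 0.306 FPKM. The LINC genes just below it were LINC00622, LINC01040 and LINC02542, at 0.296, 0.288 and 0.282 FPKM. LINC01759, now LNCTAM34A in RefSeq, was listed at 0.221, 0.259 and 0.352 FPKM in control libraries 1 to 3 and 0.47, 0.338 and 0.264 FPKM in knockdown-labelled libraries 1 to 3. LINC02163 was listed at 0.213, 0.273 and 0.127 FPKM in control libraries 1 to 3 and 0.68, 0.42 and 0.128 FPKM in knockdown-labelled libraries 1 to 3. In both the groups overlap.

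Of the LINC genes studied in carcinoma, 14 of a list of 39 were members. Limma called 0 higher and 0 lower, and 1 (LINC00667) had an unadjusted p under 0.05. Of the 14, 10 were above 0 with a median log2 difference of 0.16. Among all members 62.6% were above 0 with a median of 0.10, and among lncRNA rows from 0.3 FPKM 52.2% with 0.03. Groups did not overlap in 3 with higher values, LINC00857, LINC00667 and LINC01006, and in 1 with lower values, LINC01559. Over lncRNA rows from 0.3 FPKM, 11% did not overlap with higher and 8.69% with lower values. At an unadjusted p under 0.05 the shares of those rows were 7.59% higher and 5.16% lower. LINC01006, renamed RNF32-DT as the divergent transcript of RNF32, was listed at 1.41, 1.34 and 1.41 FPKM in control libraries 1 to 3 and 1.81, 1.84 and 1.66 FPKM in knockdown-labelled libraries 1 to 3. Its knockdown-labelled values are all higher, by less than 0.5 FPKM on average (log2 0.33, limma adjusted p = 0.562).

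LINC00467 was the 1 member of a list of 12 LINC genes known for microproteins; its RNA encodes a small mitochondrial protein studied in colon carcinoma. It stood at 3.36 ± 0.282 FPKM against 3.41 ± 0.156 FPKM (SD, n = 3), with a log2 difference of 0.02 (95% interval from -0.27 to 0.31). Of a further list of 9 LINC genes, drawn up for nuclear, genome or decay roles that were not checked here, 3 were members. LINC01184, renamed SLC12A2-DT, stood at 3.76 ± 0.408 FPKM against 3.91 ± 0.278 FPKM (SD, n = 3), LINC00623 at 2.04 ± 0.254 FPKM against 2.49 ± 0.264 FPKM (SD, n = 3), and LINC01089, studied as an inhibitor of metastasis in breast carcinoma, at 0.513 ± 0.0857 FPKM against 0.432 ± 0.125 FPKM (SD, n = 3). Limma called 0 of these 4, and 0 had an unadjusted p under 0.05.

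Known lncRNAs that carry a name instead of a LINC number were tested beside the numbered ones. Most names are functional, but the list also holds the antisense gene EPB41L4A-AS1 and the microRNA host gene MIR31HG. Of 49 listed, 21 were tested, and limma called 0 higher and 0 lower, with 1 higher and 3 lower at an unadjusted p under 0.05. Over all tested lncRNA rows, 4.98% were higher and 4.2% lower at that p. The median log2 difference was -0.04. The 1 higher was UCA1, an RNA found raised in bladder and other carcinomas, which averaged 10.2 FPKM in knockdown-labelled libraries (log2 0.77, limma adjusted p = 0.0982, voom adjusted p = 3.45e-20). The 3 lower were the nuclear RNAs MALAT1 (log2 -0.53) and NEAT1 (log2 -0.41) and MIR31HG (log2 -0.70). Voom called 2 higher, UCA1 and CYTOR, and 3 lower, MALAT1, NEAT1 and FTX. Over all 3055 rows it called 1.41% higher and 0.426% lower. It did not call MIR31HG (voom adjusted p = 0.291). These voom p-values, too, rest largely on a variance shared over all rows.

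RefSeq placed 130 of the 131 members, 116 by symbol and 14 by an older name. Of these, 111 lie between protein-coding genes and 19 overlap one. Of their neighbouring or overlapping protein-coding genes, 177 were tested in the mRNA table with limma on log2(FPKM + 1). Of these, 23 passed (13%), 12 higher and 11 lower, where 16.8% of 10823 mRNA genes did (10.9% higher and 5.91% lower). The count moved from 6 without control library 2 to 41 without knockdown-labelled library 3. It was also 13 without control library 1, 8 without control library 3 and 7 without knockdown-labelled library 2. The shares of all mRNA genes called in these fits are not given here. One called neighbour, PARG, beside LINC00843, has values that do not follow whole fragments, so its call is not described as a change.

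LINC02086 lies next to HOXB9, a homeobox transcription factor gene, which rose from 82.9 ± 3.71 to 99.4 ± 8.19 FPKM (log2 0.26, limma adjusted p = 0.0257). In fits that left out 1 library it missed the threshold when control 2 (0.0924), control 3 (0.112) or knockdown-labelled 2 (0.0726) was absent. PRAC2, on its other side, did not pass (adjusted p = 0.798). LINC02004 lies beside AMOTL2, an angiomotin family gene of the Hippo pathway, which rose from 40.3 ± 0.902 to 46.4 ± 1.38 FPKM (adjusted p = 0.019). The AMOTL2 call was lost without any 1 control library (0.0579, 0.0748 and 0.093) or knockdown-labelled library 2 (0.0622). RYK, a receptor gene on the other side, stood at 6.77 and 5.89 FPKM (adjusted p = 0.0565). LINC01752 lies beside JAG1, a Notch ligand gene, which rose from 21.6 ± 0.780 to 32.5 ± 0.859 FPKM (log2 0.57, adjusted p = 1.10e-04) and passed in all 6 fits without 1 library. Both LINC02004 and LINC01752 reached the member minimum only through the knockdown-labelled group, so their own side of 0 was favoured by that filter. LINC02535 lies beside NT5E, the ecto-nucleotidase that makes adenosine, which rose from 59.3 ± 0.622 to 76.1 ± 4.30 FPKM and also passed in all 6. LINC02535 itself was listed at 0.826, 0.825 and 0.611 FPKM in control libraries 1 to 3 and 0.947, 1.12 and 0.86 FPKM in knockdown-labelled libraries 1 to 3, all 3 higher but not past the threshold (limma adjusted p = 0.677).

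Further called neighbours lay on the same side of 0 as their LINC gene. CCDC71L, beside LINC02577, rose from 3.90 ± 0.107 to 5.04 ± 0.370 FPKM (adjusted p = 0.0112, and 0.056 without control library 2). UQCRFS1, a subunit gene of respiratory complex III beside LINC00662, rose from 32.1 ± 0.339 to 39.4 ± 2.90 FPKM (adjusted p = 0.00945), and LINC00662 itself had a log2 difference of 0.03. MRGBP, ASMTL and MTLN also rose, beside LINC00659, LINC00106 and LINC01106. EMP1, LMNB2 and ANXA8L1 fell, beside LINC01559, LINC01775 and LINC00842. Each of these 6 calls was lost in at least 1 fit that left out a library, with highest adjusted p-values of 0.0636 to 0.194.

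Neighbours of other members lay on the opposite side of 0 or did not pass. BMP4 (log2 0.19) and PTBP1 (0.28) were called higher, beside LINC02331 (-0.29) and LINC01836 (-0.19). Called lower were SHH (-0.27), JAG2 (-0.325) and AURKB (-0.24), beside LINC01006 (0.33), LINC02298 (0.48) and LINC00324 (0.81). With a control mean of 0.295 FPKM, LINC00324 reached the member minimum only through the knockdown-labelled group. Also called lower were ADARB1 (-0.19), POU2F1 (-0.25) and SLC1A4 (-0.295), beside LINC01547 (0.125), LINC01363 (0.11) and LINC02576 (0.11). Of these called neighbours, only SLC1A4 passed in all 6 fits without 1 library. LINC01703 lies between H3-3A, a replacement histone gene, and ACBD3, a Golgi protein gene. ACBD3 fell from 14.2 ± 0.665 to 12.1 ± 0.831 FPKM (adjusted p = 0.0361) while LINC01703 was higher. That call was lost without control library 2 or 3 or knockdown-labelled library 1 or 2 (0.144, 0.131, 0.0759 and 0.072). LINC01273 and LINC01270 lie on either side of CEBPB, a transcription factor gene, at log2 differences of 0.67 and -0.61. CEBPB itself stood at 35.2 ± 0.598 and 34.6 ± 2.16 FPKM (adjusted p = 0.778). LINC00513 lies between KLF14, at 0.865 ± 0.236 and 1.27 ± 0.213 FPKM (adjusted p = 0.0715), and MKLN1 (adjusted p = 0.687). LINC00471 lies beside NCL, which encodes nucleolin, at 162.8 ± 5.35 and 173.4 ± 14.7 FPKM (adjusted p = 0.39). Next to LINC00667, the zinc finger gene ZBTB14 stood at 3.47 and 3.42 FPKM (adjusted p = 0.867).

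**Figure D5:**
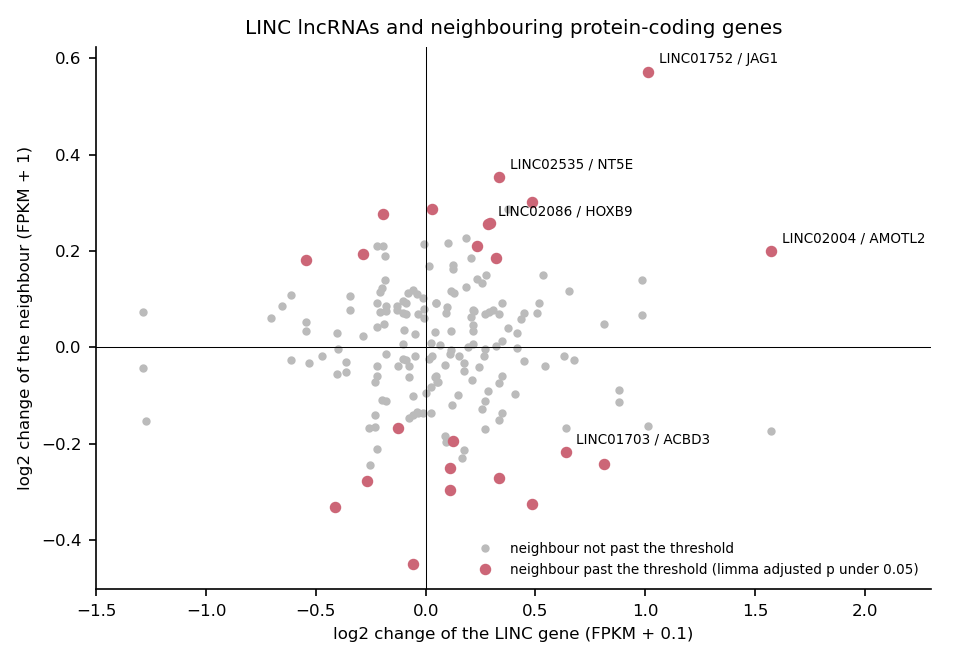
Log2 difference of each LINC gene (FPKM + 0.1, x axis) and of its neighbouring or overlapping protein-coding genes (FPKM + 1, y axis), knockdown-labelled minus control; coloured points are neighbours past the limma threshold. JAG1 (0.57) and NT5E (0.35) are the highest of the called neighbours, and the lowest point is PARG, whose values do not follow whole fragments.

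A head-to-head arrangement, with starts within 1000 bases on opposite strands, was found for 15 members. Of their partners, 14 were tested, and 1 was called higher (UBE2J2) and 1 lower (PARG). UBE2J2, a ubiquitin-conjugating enzyme gene beside LINC01786, rose from 21.5 ± 0.700 to 24.5 ± 1.23 FPKM (limma adjusted p = 0.0414), while LINC01786 had a log2 difference of -0.55. The UBE2J2 call was lost when control 1, 2 or 3 (0.0716, 0.142 and 0.162) or knockdown-labelled 2 (0.14) was absent, and with median scaling (0.0634). In 6 of the 14 pairs the LINC gene and its partner lay on opposite sides of 0. The pair of highest LINC level was LINC00205 and POFUT2, an O-fucosyltransferase gene, which stood at 7.11 ± 0.204 and 7.80 ± 0.528 FPKM (log2 0.12, adjusted p = 0.195), beside 0.11 for the LINC gene. SLC12A2, an ion cotransporter gene and partner of LINC01184, stood at 19.6 ± 0.994 and 18.7 ± 2.44 FPKM (log2 -0.07, adjusted p = 0.567), beside 0.06.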

How the data were processed

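The deposited values are FPKM per gene symbol, computed by the authors. The submitters' processing notes name HISAT2, StringTie, Cuffdiff and edgeR, with neither role nor version. Per the labels' protocols there was a poly(A)-selected library type and a stranded, rRNA-depleted type for lncRNAs; which of them gave these values is unknown here. Build, annotation and strand use: not given in the sources used here. Antisense or overlapping genes and near-identical copies can therefore share reads.

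Both tables were tested separately with limma 3.58.1 in R 4.3.3 (eBayes with trend, two-sided, Benjamini-Hochberg over each table, threshold 0.05), on log2(FPKM + 0.1) for lncRNA rows (minimum mean 0.1 FPKM) and log2(FPKM + 1) for mRNA rows (minimum mean 0.5 FPKM). Such fold changes understate low genes. Totals and fragment numbers were recovered with Python 3.11.15 from the FPKM steps (4630 of 4631 lncRNA rows above 0 in at least 3 libraries). Limma voom used them. Scripts were tested on simulated data. RefSeq neighbours came from GRCh38.p14, by name and order only.

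Members and lists were chosen with earlier results of these data known. The rule for named members took those past the adjusted threshold, up to 8 per direction at an unadjusted p under 0.05 or without overlap, the 8 most abundant, those next to the minimum, up to 6 per list and the 5 most variable, with their neighbouring genes. LINC01715, LINC02535, LINC01786, LINC01814, LINC02001, the further called neighbours with their LINC genes, and the promoters shown, were chosen after their values were seen. The alternatives were other pseudocounts, filters, scalings, empirical Bayes settings, voom, a replicate block and each library left out. Added after seeing the data were voom without each library, voom with median scaling and the sum without LINC02086.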

Additional observations from a re-analysis of the deposited data

How the results depend on the processing

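In limma on FPKM, 0 members passed under each of the other pseudocounts, filters, scalings, empirical Bayes settings and member minimums, with a replicate block and without any 1 library. Voom on recovered fragments called 4, voom with median scaling 3 and voom without 1 library 2 to 5. Of all lncRNA rows, 1 passed without the trend, 1 with the replicate block and 56 with voom. Members at an unadjusted p under 0.05 numbered 13, 6 without the trend and 22 with voom. The shares of all tested rows under the last 2 settings are not given here. With voom 5 lncRNAs of the list without LINC numbers and 1 carcinoma-list member passed, where voom called 1.41% of 3055 rows higher and 0.426% lower.

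Members with no overlap numbered 27, and 38 to 45 without 1 library, where fewer values have to separate. The shares of all lncRNA rows without 1 library are not given here. The median log2 difference was 0.05 with a pseudocount of 1. The summed FPKM differed by 4.62% with quantile normalization, by 9.01% without LINC02086 and by 8.08% to 12% without 1 library. Neighbouring genes called numbered 23, and 6 to 41 without 1 library, where the share of all mRNA genes called is not given here. The replicate block gave 34; same-numbered libraries correlated at -0.055 to 0.012 in the lncRNA table and at 0.039 to 0.279 in the mRNA table, so the numbers were not taken to pair them.

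Signs changed for members near 0: LINC00205 (-0.04 with quantile normalization), LINC00467 (-0.0041 with median scaling, -0.01 with quantile normalization and -0.03 to 0.08 without 1 library), LINC00511 (-0.0011, -0.02 and -0.0025 to 0.07) and LINC01184 (-0.03 to 0.12 without 1 library). The other 31 of 35 named members kept their sign. The cause of these shifts was not tested.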

Other observations

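The mRNA table also holds 4 LINC-numbered rows, which the rule on the lncRNA table leaves out. LINC00854 averaged 0.497 ± 0.0790 FPKM in controls and 0.498 ± 0.116 FPKM in knockdown-labelled libraries (SD, n = 3), a level at which it would have been a member. LINC00672 averaged 0.137 FPKM and LINC00483 0.0179 FPKM over the 6 libraries, and LINC02203 was listed at 0 in all 6.

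Several LINC genes of the lncRNA table carry later names in RefSeq. The 14 matched through an older name include 5 now named as divergent transcripts (LINC01184, LINC01006, LINC00337, LINC01715 and LINC02062) and LINC02001, now SNHG30, a snoRNA host gene. By position LINC01006 and LINC02062 overlap RNF32 and CHD1, and neither was among the head-to-head pairs. LINC02001 was higher in all 3 knockdown-labelled libraries, at 4.16 ± 0.507 against 4.84 ± 0.101 FPKM, with a log2 difference of 0.22 (limma adjusted p = 0.628). MTLN, once LINC00116 and the gene of a mitochondrial microprotein, is a row of the mRNA table under another older name and lies beside LINC01106. It rose from 3.84 ± 0.155 to 4.78 ± 0.286 FPKM (limma adjusted p = 0.0188), which missed the threshold when control 2 (0.0894), control 3 (0.0711) or knockdown-labelled 2 (0.0735) was absent.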
